A study of Mus musculus with 2 samples.

Results

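The genes described here are 34 genes of ribosome biogenesis and of RNA polymerase I, the enzyme that transcribes the large ribosomal RNA precursor, out of 43346 Ensembl gene rows. They were chosen by name, through the Ensembl identifiers of the GENCODE M21 annotation. No measured value entered the rule, though earlier results of these data were known when the genes were chosen. All 34 were found. They fall into 6 roles by known function: 6 multifunctional nucleolar proteins, 3 proteins of the box C/D core, 4 of the box H/ACA core, 5 subunits or factors of RNA polymerase I, 8 factors of the small subunit processome and 40S assembly, and 8 factors of 60S assembly. They were measured in CFU-E (colony-forming unit erythroid cells, progenitors committed to the red cell lineage) from the bone marrow of C57BL/6J males, 5 to 6 weeks old. There was 1 group with no treatment or mutation named, sampled as biological replicates 1 and 2. Each library was made by ScriptSeq from 100 ng of total RNA depleted of ribosomal RNA.

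A ribosome is built in the nucleolus, where RNA polymerase I transcribes 1 long precursor that is cut into the 18S, 5.8S and 28S ribosomal RNAs. Small nucleolar RNAs (snoRNAs) pair with the precursor while it is being made and direct chemical changes to it: box C/D snoRNAs guide methylation of the ribose, and box H/ACA snoRNAs guide the change of uridine to pseudouridine. Assembly factors then fold, trim and export the 40S and 60S subunits. Erythroid progenitors divide fast and their descendants make large amounts of globin. Inherited defects of ribosomal proteins or of ribosome assembly are known for causing anaemia.

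With 1 group no comparison between conditions exists, so the questions are how high each gene stood, how far the libraries differed, and which transcripts carried the level. Counts per gene summed to 62576357 in replicate 1 and 36889517 in replicate 2. Levels are in TPM, a measure of transcript abundance that the authors scaled for transcript length and library size. Nuclear protein-coding genes took 12.4% of all TPM in replicate 1 and 7.49% in replicate 2. A level of 1 TPM is therefore higher here than where messenger RNAs fill the scale, and levels of protein-coding genes are shifted upward in replicate 1. Over 3384 nuclear protein-coding genes of mean count 1000 or more, the median log2 ratio of replicate 1 to replicate 2 was 0.64 in TPM and 0.02 in counts scaled by TMM (trimmed mean of M values, edgeR's correction for library size and composition). An SD of TPM over the 2 libraries includes that shift, and the ranks among 21461 nuclear protein-coding genes do not. By the labels the libraries share 1 donor identifier but not a biosample, and part of their spread may be technical. The erythroid markers Gata1, Klf1, Epor, Tfrc, Slc4a1, Alas2 and Hbb-bt each stood at 10 TPM or more in both libraries. Kit, a receptor carried by CFU-E and by earlier progenitors, stood at 0.42 and 0.51 TPM, and of the 4 stem and early progenitor markers none reached 1 TPM. Of 6 granulocyte markers each stood at 10 TPM or more in each library, and their summed level was 1166 TPM in replicate 1 and 587 in replicate 2. Of the markers of other cells, 4 of 5 for monocytes and macrophages, 3 of 4 for B cells, 2 of 4 for megakaryocytes and 1 of 3 for T cells reached 1 TPM in both libraries. The part of such cells in the levels given below was not tested, and in bulk RNA fewer cells of a type and less RNA per cell cannot be told apart.

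The 34 genes spanned a wide range of levels, from Npm1 at 55.0 and 29.8 TPM to Gar1 at 0.06 and 0 TPM. Their median was 1.24 TPM over the 2 libraries, 1.60 in replicate 1 and 0.88 in replicate 2. In both libraries 13 of 34 reached 1 TPM, against 23.9% of all nuclear protein-coding genes, a background that includes genes silent in these cells. Over 9880 nuclear protein-coding genes that had 10 counts or more in each library, the median was 1.59 TPM. At or above it stood 12 of the 34, against 23.1% of all nuclear protein-coding genes. Among genes with 10 counts or more in each library the shares were the other way: 13 of the 32 of these genes that had such counts reached 1 TPM in both, against 52.0%, and 12 of the 32 stood at or above the median, against 4943 of the 9880, which the median by its definition divides evenly. Among the 12, Fbl stood nearest to that median, at a mean of 1.66 TPM, and Nop10 was next below it at 1.57. Only Npm1, Ubtf, Ncl and Nop56 of the 34 reached 10 TPM in both libraries, and over protein-coding transcripts alone Npm1 and Ubtf did. Together the 34 genes took 0.0941% of counts in replicate 1 and 0.0891% in replicate 2. The 85 genes of cytoplasmic ribosomal proteins, whose products these factors assemble, took 0.619% and 0.708% and had a median of 40.7 TPM. The 77 genes of mitochondrial ribosomal proteins had a median of 1.65 TPM.

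**Figure D1:**
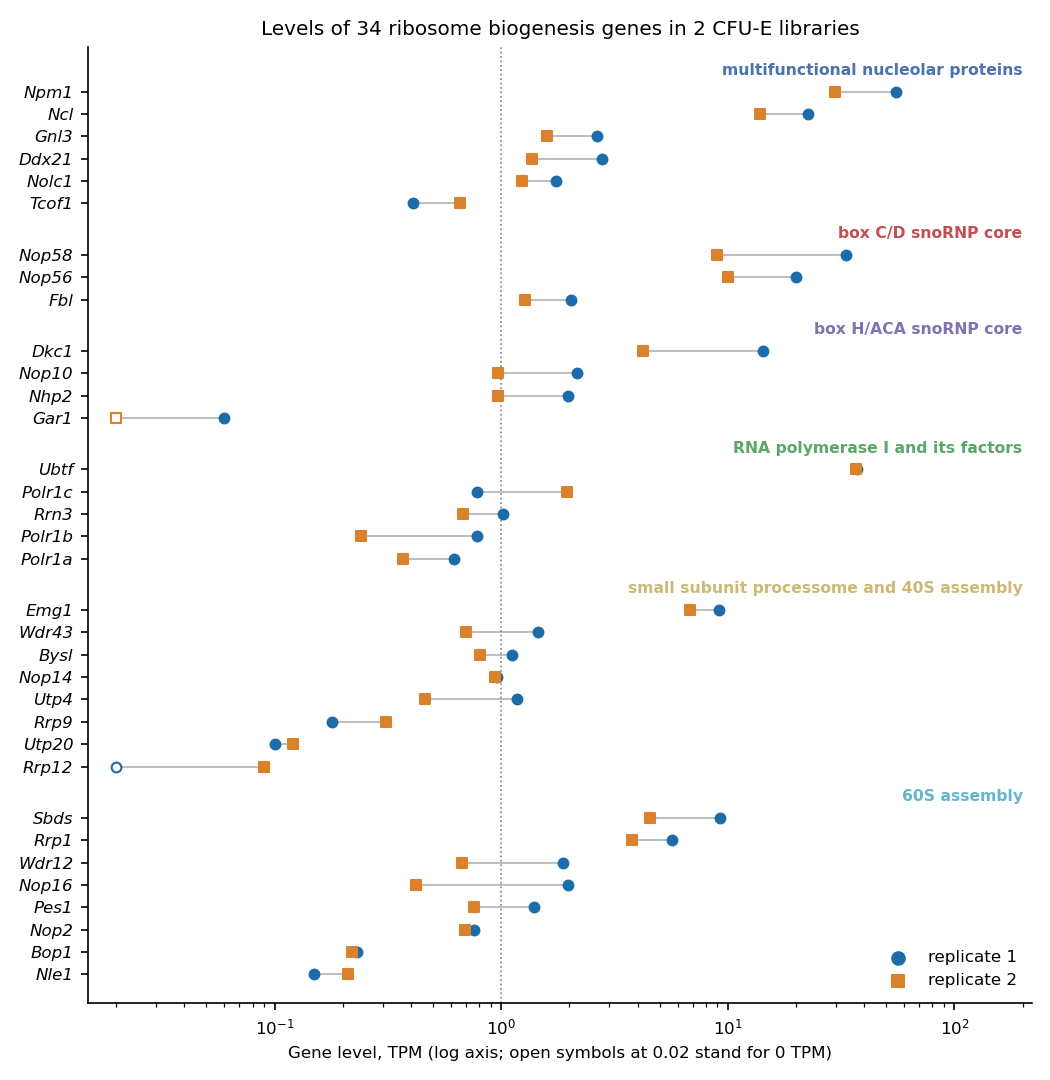
Level of each of the 34 genes in TPM (log axis), grouped by role, with a circle for replicate 1, a square for replicate 2 and a dotted line at 1 TPM. Npm1, Ubtf, Ncl and Nop56 lie above 10 TPM in both libraries, while Gar1 in replicate 2 and Rrp12 in replicate 1 are listed at 0.

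**Figure D2:**
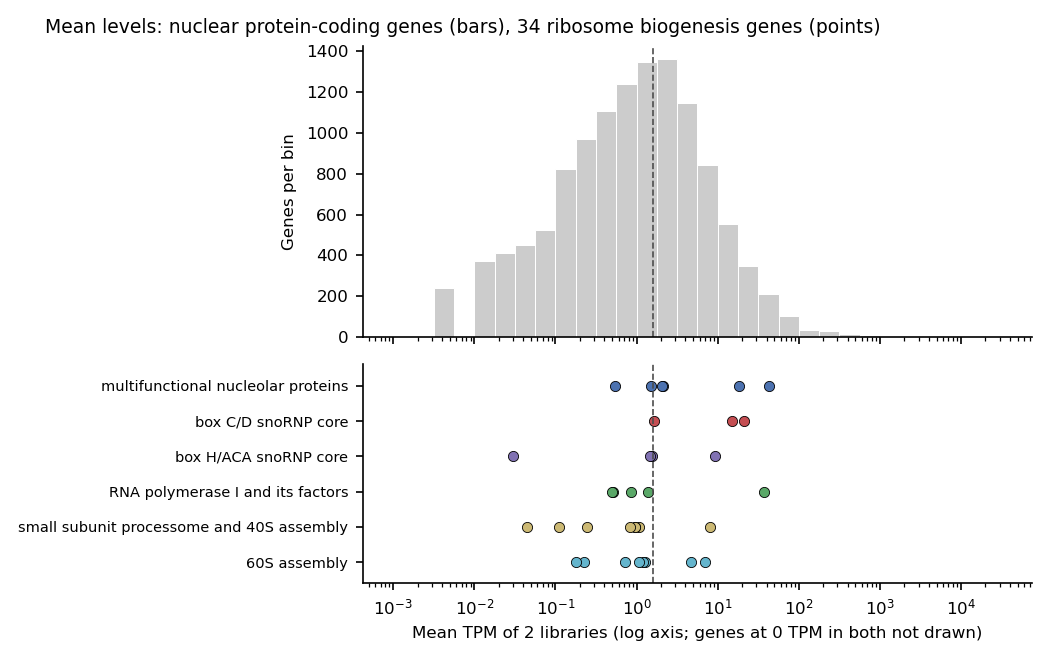
Bars count nuclear protein-coding genes by mean TPM of the 2 libraries (log axis), and points show the 34 genes by role. The dashed line marks 1.59 TPM, the median of genes that had 10 counts or more in each library, and 12 of the 34 points lie at or above it.

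Among the multifunctional nucleolar proteins, Npm1 and Ncl stood far above the other 4 at the gene level, but over protein-coding transcripts alone Npm1 did (52.4 and 29.1 TPM) and Ncl did not. Protein-coding transcripts gave Ncl 2.69 and 2.21 TPM, beside 2.79 and 1.37 for Ddx21 and 2.66 and 1.60 for Gnl3. The split of Ncl between transcripts that share most of their exons is an estimate, and it was not tested. Its main protein-coding transcript, Ncl-201, is annotated at 8202 bases, and the retained-intron Ncl-202 at 3072. Only 682 bases of Ncl-202 lie outside protein-coding exons. The protein-coding TPM of Ncl thus depends on that split and on the annotated length of Ncl-201. Npm1 (nucleophosmin, chr11:33152287-33163206), a chaperone of the granular part of the nucleolus, had 10180.5 counts and 55.0 TPM in replicate 1 and 4443 counts and 29.8 TPM in replicate 2. Its mean was 42.4 ± 17.8 TPM (SD, n = 2), and it ranked 268 and 335 among nuclear protein-coding genes. Ncl (nucleolin, chr1:86344719-86359400), which binds the nascent precursor, had 10826 and 6604 counts, or 22.6 and 13.9 TPM. Its mean was 18.3 ± 6.18 TPM, with ranks of 735 and 752. Within a library Npm1 exceeded Ncl by 1.28 and 1.10 on the log2 TPM scale, a mean of 1.19 ± 0.13, and by 4.00 ± 0.40 over protein-coding transcripts. In counts, which are not corrected for length, Npm1 was the lower of the pair in both libraries, at log2 ratios of -0.09 and -0.57. Gnl3 (nucleostemin, a GTPase of dividing cells) had 2.66 and 1.60 TPM, and Ddx21, an RNA helicase, had 2.79 and 1.37. Nolc1, which shuttles between nucleolus and Cajal bodies and binds snoRNPs, had 1.74 and 1.24 TPM. Within each library these 3 genes lay less than 2-fold apart. Tcof1 (treacle), a cofactor of ribosomal RNA transcription, had 291 counts and 0.41 TPM in replicate 1 and 416 counts and 0.66 TPM in replicate 2. It was the only gene of the role under 1 TPM.

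All 3 proteins of the box C/D core were above 1 TPM in both libraries. Nop58 (chr1:59684971-59719044) and Nop56 (chr2:130274430-130279313) are paralogous scaffolds of the complex, and Fbl (fibrillarin) is its methyltransferase. Nop58 had 3106 counts and 33.4 TPM in replicate 1 but 1044 counts and 8.92 TPM in replicate 2. Nop56 had 2841 and 1703 counts, or 20.0 and 10.1 TPM. The scaffolds changed places between the libraries: the log2 TPM ratio of Nop56 to Nop58 was -0.74 in replicate 1 and 0.17 in replicate 2. Over protein-coding transcripts alone the signs were the opposite, at 0.22 and -0.71. Fbl (chr7:28169710-28179269) had 312.8 and 187 counts, or 2.04 and 1.27 TPM. Nop56 exceeded it by 3.14 ± 0.22 on the log2 scale, and by 3.18 and 3.19 in counts, so the gap between scaffold and enzyme was large beside its spread. Over protein-coding transcripts alone the gap was 2.25 ± 0.48.

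Of the 4 proteins of the box H/ACA core, Dkc1 led at the gene level and Gar1 was hardly seen. Dkc1 (dyskerin, chrX:75095854-75109777) is the pseudouridine synthase, and had 1793 counts and 14.2 TPM in replicate 1 and 852 counts and 4.21 TPM in replicate 2. Nop10 had 2.17 and 0.97 TPM and Nhp2 had 1.98 and 0.97 TPM, so these small core proteins stood at almost equal levels. Dkc1 exceeded Nhp2 by 2.48 ± 0.52 and Nop10 by 2.42 ± 0.42 on the log2 TPM scale. Over protein-coding transcripts alone, where Dkc1 had 2.30 and 1.70 TPM, these gaps were 0.51 ± 0.42 and 0.45 ± 0.51, so most of its lead in TPM lay in transcripts that are not protein-coding. In counts the log2 ratio of Dkc1 to Nhp2 was 2.76 in both libraries. Gar1 (chr3:129824912-129831396), the fourth core protein, had 2 counts in replicate 1 and 0 in replicate 2. In counts with no correction for length, Dkc1 was 896.5-fold higher than Gar1 in replicate 1, with an exact (Clopper-Pearson) 95% interval of 248 to 7408. Taking 3 counts as the most that a count of 0 allows, it was at least 284-fold higher in replicate 2. Such limits hold for counting error alone, as PCR copies of 1 molecule are counted as separate reads. The gap was smaller in the authors' posterior mean TPM, which is scaled for length and gave Gar1 0.17 and 0.11. There the log2 ratio of Dkc1 to Gar1 was 6.40 in replicate 1 and 5.36 in replicate 2. Both Gar1 reads were assigned to Gar1-205, a transcript of 418 bases annotated as a retained intron, and none to a protein-coding transcript.

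RNA polymerase I and its factors were split between Ubtf and the rest. Ubtf (upstream binding factor, chr11:102304560-102319742), which binds ribosomal DNA along its length and keeps it open, had 15117 counts and 37.2 TPM in replicate 1 and 8985 counts and 36.8 TPM in replicate 2. It ranked 435 and 259 and was the gene with most counts of the 34. Polr1a, the largest catalytic subunit, had 597 and 327 counts, or 0.62 and 0.37 TPM. Ubtf stood above Polr1a by 5.91 and 6.64 on the log2 TPM scale, a mean of 6.27 ± 0.51, by 5.54 ± 0.05 over protein-coding transcripts, and by 4.66 and 4.78 in counts. Polr1b, the other large catalytic subunit, had 0.78 and 0.24 TPM, and the sign of its ratio to Polr1a differed between the libraries (-0.33 and 0.62 for Polr1a over Polr1b). In TPM these subunits did not differ beyond their spread, while in counts Polr1a was the higher in both libraries, by 1.09 and 1.35 on the log2 scale. Polr1c, a subunit shared with RNA polymerase III, had 77 counts and 0.78 TPM in replicate 1 and 303 counts and 1.95 TPM in replicate 2. Rrn3, which joins the polymerase to its promoter factors, had 1.02 and 0.68 TPM.

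Most factors of the small subunit processome and 40S assembly lay near or under 1 TPM, and Emg1 was the exception. Emg1 (chr6:124704085-124712178), a methyltransferase of 18S ribosomal RNA, had 1189 and 851 counts, or 9.10 and 6.83 TPM. Wdr43 had 1.46 and 0.70 TPM, Bysl 1.12 and 0.81, Nop14 0.96 and 0.94, and Utp4 1.18 and 0.46. Rrp9, a component of the U3 snoRNP, had 39 and 65 counts, or 0.18 and 0.31 TPM. Utp20, one of the largest proteins of the pathway, had 146 and 152 counts but 0.10 and 0.12 TPM. Utp20 stood below Utp4 by a log2 TPM ratio of -3.56 in replicate 1 and -1.94 in replicate 2, while in counts the sign differed between the libraries (-1.42 and 0.10). Rrp12, which takes part in export of the subunits, had 0 counts in replicate 1 and 55 in replicate 2. With 3 counts allowed in replicate 1, Rrp12 was at least 30.0-fold higher in replicate 2 in TMM-scaled counts, for counting error alone. Large gaps were common at such low counts. Of nuclear protein-coding genes with mean counts of 10 to 50, 82.1% were past 2-fold in either direction. Their median absolute log2 ratio was 5.02 with a prior count of 0.5, by which Rrp12 stood at -7.50. That value was just past the 10th percentile, -7.34, of all genes with mean counts of 17.8 to 31.6.

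In 60S assembly, Sbds and Rrp1 led. Sbds, which releases eIF6 from the new subunit and is mutated in Shwachman-Diamond syndrome, had 1364 and 820 counts, or 9.23 and 4.55 TPM. Rrp1 had 1662 and 1035 counts, or 5.70 and 3.76 TPM. The 3 members of the PeBoW complex, which matures 28S and 5.8S ribosomal RNA, did not stand at 1 level. Pes1 had 1.40 and 0.76 TPM and Wdr12 had 1.88 and 0.67, and the sign of their log2 ratio differed between the libraries (-0.43 and 0.18). Bop1 had 84 and 75 counts, or 0.23 and 0.22 TPM, and Pes1 exceeded it by 2.20 ± 0.58 on the log2 scale. Nop2, a methyltransferase of 28S ribosomal RNA, had 0.76 and 0.69 TPM, and Nop16 had 1.97 and 0.42. Nle1 had 14 and 16 counts, or 0.15 and 0.21 TPM, all in transcripts that are not protein-coding.

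The libraries were close for most of these genes once depth was allowed for. Over the 31 genes whose mean count was 50 or more, the median log2 ratio of replicate 1 over replicate 2 was 0.03 in TMM-scaled counts, and 19 were higher in replicate 1. None of the 31 was 2-fold or more higher in replicate 1, against 10.6% of 10403 genes with such counts. In the other direction 3 of 31 were 2-fold or more higher in replicate 2, against 10.5% of those genes, a share close to the background. These 3 were Polr1c (log2 ratio -2.68, or 6.40-fold), Rrp9 (-1.44) and Tcof1 (-1.22). With 1 library on each side these are differences between libraries and have no test. Ncl (0.00), Sbds (0.02), Rrp1 (-0.03), Nop56 (0.03), Rrn3 (-0.03), Fbl (0.03) and Ubtf (0.04) were the closest between the libraries. Npm1 (0.49) and Nop58 (0.86) lay further apart, at mean counts of 7312 and 2075. For nuclear protein-coding genes with mean counts of 5000 to 50000 the median absolute log2 ratio was 0.15, and for counts of 1000 to 5000 it was 0.23. Of genes with mean counts of 50 to 200, 46.1% were past 2-fold in either direction, as were 2 of the 6 genes of the pathway in that range (Polr1c and Rrp9). At counts of 200 to 1000 it was 15.2%, and 1 of 15 (Tcof1).

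**Figure D3:**
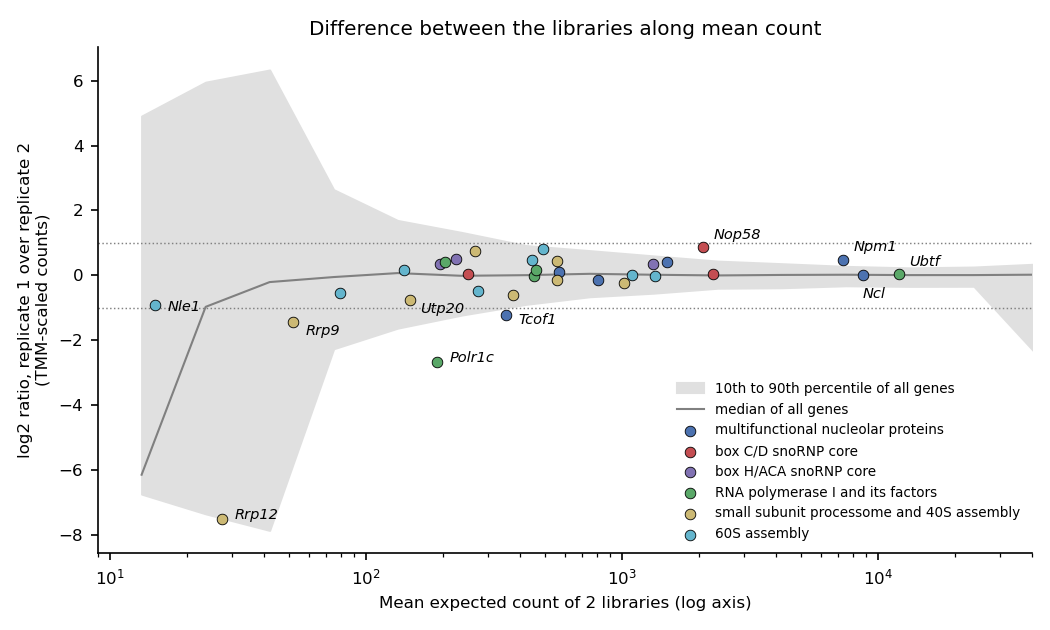
Log2 ratio of replicate 1 over replicate 2 in TMM-scaled counts (vertical axis) against mean expected count (log axis), with a point for each of the genes whose mean count was 10 or more, coloured by role. The grey band holds the 10th to 90th percentile of all genes and dotted lines mark 2-fold, and Polr1c, Rrp9, Tcof1 and Rrp12 lie below the lower line, Rrp12 at -7.50 because a prior count stands in for its 0 reads in replicate 1.

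Which annotated transcripts the reads were assigned to differed strongly between genes. The 34 genes have 151 transcripts in the deposited tables, of which 101 had counts, and in 19 genes a single transcript held all of them. Most of the 19 have only 1 transcript in those tables, which fixes that outcome, and Gar1 is among them through 2 reads. For Gnl3, 1 of the 19, M21 lists further transcripts that the deposited tables do not hold. Of 17 genes with several transcripts and a mean count of 50 or more, 3 (Ncl, Nop56 and Dkc1) had 20% or more of their counts in transcripts not annotated as protein-coding in both libraries, against 20.2% of 7089 such genes. The transcript with most counts differed between the libraries in 6 of the 17, against 30.9% of the same genes. Both shares were near their background. The split between transcripts is an estimate, made where transcripts of 1 gene share most of their exons, and it carries over into the gene's TPM because each transcript is divided by its own length.

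Among these 17 genes Ncl had the largest share of counts outside protein-coding transcripts in both libraries, 70.7% and 59.5%. Ncl-202, annotated as a retained intron of 3072 bases, held 7287 counts in replicate 1 and 3676 in replicate 2, which is 67.3% and 55.7% of the gene. The protein-coding Ncl-201, of 8202 bases, held 29.2% and 40.5%. In TPM Ncl-202 stood at 15.7 and 8.43 and Ncl-201 at 2.42 and 2.21. The level of the gene, 22.6 and 13.9 TPM, was thus assigned mostly to the retained-intron transcript. Ncl-202 keeps 2 introns that the protein-coding transcripts remove, of 492 and 190 bases. Only 682 of its 3072 bases lie outside exons of protein-coding transcripts. Reads over those bases were not counted apart, so how much of the Ncl level is retained intron was not tested. Ubtf had the other large retained-intron transcript by level. Ubtf-212, of 480 bases, held 321 and 892 counts, which was only 2.12% and 9.93% of the gene's counts but 20.4% and 53.9% of its TPM, at 7.60 and 19.8. Protein-coding transcripts together gave Ubtf 29.6 TPM in replicate 1 and 16.8 in replicate 2. The near-equal TPM of the gene, 37.2 and 36.8, was thus made up differently in the libraries, with more protein-coding TPM in replicate 1 and more of Ubtf-212 in replicate 2. The higher protein-coding TPM in replicate 1 includes the shift of the TPM scale given above, a median log2 ratio of 0.64 over 3384 genes.

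The retained sequence is shown for the Ncl and Ubtf transcripts and for Emg1-203, because these bases separate the retained-intron transcripts from the protein-coding ones. Capitals mark bases outside every exon of the protein-coding transcripts, and lower case marks flanking exon bases. They were read from the GENCODE M21 transcripts on mm10, 5′ to 3′ on the minus strand. The stretches lie at chr1:86352300-86352529 for Ncl-202 (the shorter of its 2 introns), chr11:102308530-102308718 for Ubtf-212 and chr6:124705069-124705177 for Emg1-203. The Emg1 stretch, of 69 bases, is the shorter of 2 in Emg1-203, and the retained-intron Emg1-204 holds it too.
Ncl-202: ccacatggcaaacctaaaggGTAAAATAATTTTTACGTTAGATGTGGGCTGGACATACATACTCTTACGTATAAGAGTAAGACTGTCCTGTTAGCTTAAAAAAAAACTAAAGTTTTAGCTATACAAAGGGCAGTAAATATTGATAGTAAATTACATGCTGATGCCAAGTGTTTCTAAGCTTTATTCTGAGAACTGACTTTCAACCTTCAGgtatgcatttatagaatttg
Ubtf-212: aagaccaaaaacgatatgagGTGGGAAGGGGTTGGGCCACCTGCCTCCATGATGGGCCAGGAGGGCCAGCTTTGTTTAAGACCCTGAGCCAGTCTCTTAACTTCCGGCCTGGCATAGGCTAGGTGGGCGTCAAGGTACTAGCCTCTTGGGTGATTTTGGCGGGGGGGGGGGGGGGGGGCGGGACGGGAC
Emg1-203: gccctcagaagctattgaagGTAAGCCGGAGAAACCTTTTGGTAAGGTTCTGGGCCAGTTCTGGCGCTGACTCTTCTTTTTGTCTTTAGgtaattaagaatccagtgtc
The Ncl and Emg1 stretches begin with GT and end with AG, the usual letters at the ends of an intron. The Ubtf stretch begins with GT and is cut off by the end of the annotated transcript after 169 bases. Its GC content was 64.5%, against 32.6% in the Ncl stretch and 47.8% in the Emg1 stretch.

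The other Ubtf transcripts were assigned differently in the libraries. Ubtf-205 held 7036 counts (46.5%) in replicate 1 and 0.46 in replicate 2, and Ubtf-206 held 409 (2.70%) and 2910 (32.4%). Ubtf-213 held 17.9 and 2242 counts. These transcripts share most of their exons, and the gene total was within 1.03-fold between the libraries in TMM-scaled counts.

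For Nop58 a short transcript set the level in replicate 1. Nop58-205, of 373 bases and annotated as a target of nonsense-mediated decay, held 494 counts and 19.6 TPM in replicate 1 and 13.6 counts and 0.47 TPM in replicate 2. It was 15.9% of the counts but 58.8% of the TPM of the gene in replicate 1. Over protein-coding transcripts alone Nop58 stood at 10.5 and 7.80 TPM, against 33.4 and 8.92 for the whole gene. The Nop58 transcript with most counts was the protein-coding Nop58-201 in both libraries, at 32.8% and 38.8%. Dkc1 showed the same kind of gap between counts and TPM. Its protein-coding Dkc1-201 held 54.0% and 78.9% of counts but 16.2% and 40.5% of TPM, at 2.30 and 1.70. Dkc1-211, a processed transcript of 551 bases, had 5.41 and 1.46 TPM, and Dkc1-210, annotated for nonsense-mediated decay, had 3.66 and 0.

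Nop56 spread its counts over many transcripts. Its leading one was the retained-intron Nop56-213 in replicate 1 (25.2%) and the protein-coding Nop56-202 in replicate 2 (47.6%). Transcripts that are not protein-coding held 36.0% and 37.3% of its counts, nearly the same share in both libraries. In Emg1 that share was 57.6% in replicate 1 and 14.1% in replicate 2, and the retained-intron Emg1-203 alone held 38.1% and 12.1%. Npm1 was almost wholly protein-coding, with 0.99% and 0.68% of its counts in other transcripts. In Nop16, Polr1b, Polr1c and Wdr12 the leading transcript differed between the libraries, and each of the leading transcripts was protein-coding. All 183 counts of Nop16 in replicate 1 went to Nop16-202 of 790 bases and all 100 in replicate 2 to Nop16-201 of 1756 bases. Its TPM differed from 1.97 to 0.42 although its TMM-scaled counts were within 1.12-fold. All 77 counts of Polr1c in replicate 1 went to Polr1c-203, which had none in replicate 2, where Polr1c-201 held 271 of 303.

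**Figure D4:**
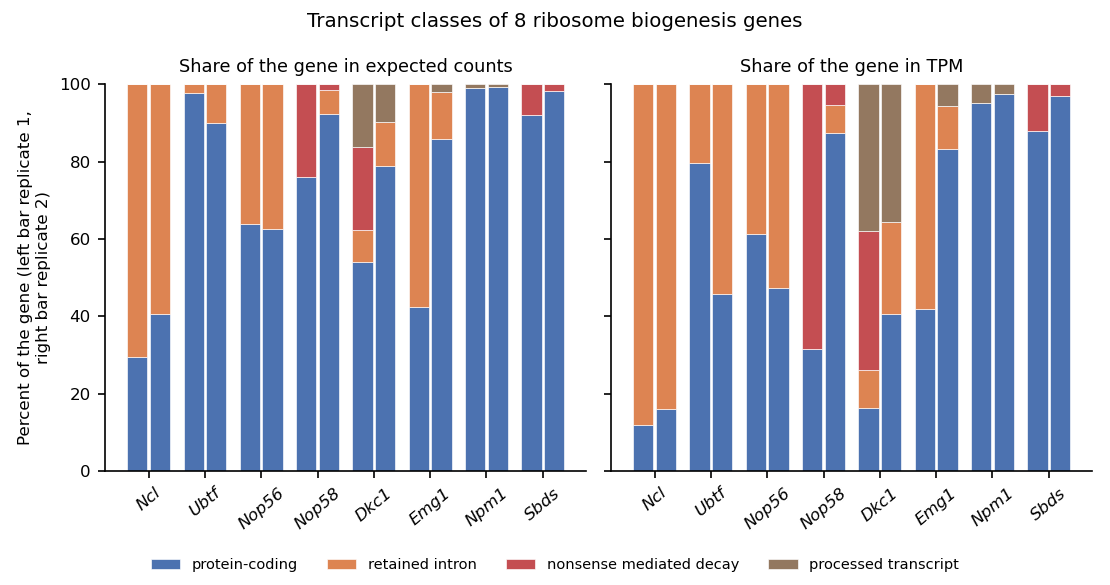
Share of each gene's expected counts (left panel) and TPM (right panel) by annotated transcript class, in percent, for 8 of the genes, with the left bar of each pair for replicate 1 and the right bar for replicate 2. Protein-coding transcripts hold under 50% of Ncl counts in both libraries and nearly all of Npm1, and the TPM shares of Nop58 and Ubtf differ from their count shares.

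Several of these genes carry snoRNA genes within their bounds, a position that was not used to choose them. The annotation places 19 snoRNA genes wholly inside 6 of the 34 on the same strand: 5 in Nop56, 4 in Nop58, 3 each in Ncl, Gnl3 and Wdr43, and 1 in Dkc1. Only 2 of the 19 had counts, and both are 133 bases long with an ACA 3 bases from the 3′ end, as box H/ACA snoRNAs have. Gm24451 in Nop56 (chr2:130276237-130276369) had 134 and 110 counts, listed as 335 and 97.8 TPM. Snora75 in Ncl (chr1:86351169-86351301) had 11 counts in replicate 1 and 0 in replicate 2. The TPM of Gm24451 is above that of its host, Nop56 at 20.0 and 10.1, but it rests on effective lengths of 2.44 and 7.46 bases. The effective length is the number of positions at which a fragment could start, and the mean fragment was 224 and 183 bases. All 16 of the 19 that are under 100 bases had an effective length of 0 and 0 counts. Over all 1525 snoRNA genes, 3.04% of those under 100 bases, 6.24% of those from 100 up to 129 bases and 18.5% of those of 130 bases or more had counts. A count of 0 for the shorter genes is therefore no measurement of their level.

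The snoRNA genes with counts are printed with Snord57, a box C/D snoRNA of 72 bases inside Nop56 (chr2:130278016-130278087) that had none, to show the difference in length and ends. Sequences are from GENCODE M21, 5′ to 3′ on the strand of the host, which is plus for Nop56 and minus for Ncl. Capitals mark the ACA near the 3′ end of the H/ACA type and the CTGA (box D) of the C/D type.
Gm24451: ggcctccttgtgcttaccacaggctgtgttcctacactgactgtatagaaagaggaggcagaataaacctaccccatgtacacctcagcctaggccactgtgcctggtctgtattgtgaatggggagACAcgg
Snora75: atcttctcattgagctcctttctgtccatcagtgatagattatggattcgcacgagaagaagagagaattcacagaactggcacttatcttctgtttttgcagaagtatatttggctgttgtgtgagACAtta
Snord57: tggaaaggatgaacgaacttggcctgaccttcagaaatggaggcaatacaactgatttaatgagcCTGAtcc
Both snoRNA genes with counts overlap exons of retained-intron transcripts of the host, Nop56-215 and Nop56-216 for Gm24451 and Ncl-205 for Snora75, and neither overlaps an exon of a protein-coding transcript. Nop56-215 had 48.0 counts in replicate 1 and 0 in replicate 2, and how reads in the shared stretch were divided between host and snoRNA was not tested.

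Promoter sequence was compared because Myc, a known activator of ribosome biogenesis genes, binds the letters CACGTG, called an E-box. RefSeq windows on GRCm38.p6, from 250 bases before to 50 after the most upstream start, were at hand for 28 of the 34 genes. CACGTG, which reads the same on both strands, was in 7 of 28 windows (25.0%): those of Nle1, Nop2, Pes1, Rrn3, Utp20, Utp4 and Wdr43. It was in 8.16% of the windows of 16317 protein-coding genes, a background that was not limited to genes expressed in these cells. None of the 9 windows of genes at or above the median of expressed genes held it. No share over all genes at that level stands beside this, so a link between the E-box and level was not tested. CCGGAAG, a motif of ETS factors searched on both strands, was in 8 of 28 (28.6%) and in 12.4% of all windows. It was in 1 of the same 9. CTCGCGAG was in 0 of 28 and in 1.36% of all. The median GC content was 59.2% in the 28 windows and 57.0% in all. A match is a description of the letters and not a bound site. Windows of 3 of the 7 are printed 5′ to 3′, all on the plus strand, with the E-box in capitals, since they show how its place varies: Nop2 (chr6:125131633-125131932) at position -60 from the start, Pes1 (chr11:3963725-3964024) at position 3 after it, and Rrn3 (chr16:13780449-13780748) with a pair at -215 and -48.
Nop2: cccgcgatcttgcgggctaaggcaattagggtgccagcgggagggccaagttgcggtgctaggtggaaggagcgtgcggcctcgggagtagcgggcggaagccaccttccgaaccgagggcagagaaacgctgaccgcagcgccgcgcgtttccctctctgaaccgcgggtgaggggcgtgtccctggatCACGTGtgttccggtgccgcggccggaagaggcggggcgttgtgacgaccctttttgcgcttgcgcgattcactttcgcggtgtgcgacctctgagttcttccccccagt
Pes1: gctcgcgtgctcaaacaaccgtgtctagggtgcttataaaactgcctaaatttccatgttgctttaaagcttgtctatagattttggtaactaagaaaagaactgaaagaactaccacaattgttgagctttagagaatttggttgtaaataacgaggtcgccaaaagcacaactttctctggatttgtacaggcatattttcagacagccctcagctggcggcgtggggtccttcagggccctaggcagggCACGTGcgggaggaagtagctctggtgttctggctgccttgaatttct
Rrn3: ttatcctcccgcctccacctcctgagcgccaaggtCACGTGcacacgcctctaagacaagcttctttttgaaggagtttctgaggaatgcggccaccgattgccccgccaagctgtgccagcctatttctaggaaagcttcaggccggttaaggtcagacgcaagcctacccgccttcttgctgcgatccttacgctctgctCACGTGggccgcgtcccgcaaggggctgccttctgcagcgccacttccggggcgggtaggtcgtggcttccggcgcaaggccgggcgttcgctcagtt
These 3 genes stood at 0.76 and 0.69, 1.40 and 0.76, and 1.02 and 0.68 TPM in replicates 1 and 2.

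The other genes of the pathway lay within a narrower range of levels. Of 126 further genes listed by known function, 125 were found by symbol, 56 reached 1 TPM in both libraries and none reached 10. Their median was 1.12 TPM. By role, 7 of 16 other polymerase I subunits and factors reached 1 TPM in both, as did 3 of 10 other snoRNP proteins and assembly factors, 17 of 43 other factors of 40S assembly, 20 of 42 other factors of 60S assembly and 9 of 14 genes of the nuclear exosome and its exonucleases. Among polymerase I factors Taf1d, a subunit of the promoter selectivity factor, was highest at 12.2 and 4.47 TPM, followed by Tbp at 5.84 and 3.33 and Polr2k at 4.17 and 2.80. The lowest were Taf1a, another subunit of that factor, and Znrd1, a polymerase I subunit: both had 0 counts in replicate 1 and stood at 0.31 and 0.34 TPM in replicate 2. Cd3eap, a further subunit, was also low, at 0.10 and 0.28 TPM. Snu13, the protein that first binds box C/D snoRNAs, led the other snoRNP proteins at 6.90 and 4.01 TPM, followed by the assembly helicases Ruvbl1 at 4.88 and 1.87 and Ruvbl2 at 3.27 and 1.74. Naf1 and Shq1, which help to assemble H/ACA particles, were low at 0.20 and 0.24 and at 0 and 0.31 TPM, as was Znhit6 at 0.02 and 0.15.

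In 60S assembly Nop53 led at 8.29 and 5.71 TPM, with the helicases Ddx24 at 5.99 and 4.47 and Ddx27 at 5.97 and 3.89, and Ddx51 was lowest with 0 counts in replicate 1 and 0.22 TPM in replicate 2. Ddx31 (0.09 and 0.25) and Las1l (0.37 and 0.23) were the next lowest. In 40S assembly Ddx47 had 5.78 and 2.37 TPM, Fcf1 2.91 and 5.23 and Utp3 3.79 and 2.06, while Pdcd11, Nol6 and Noc4l had means of 0.29 to 0.36. Exosc8, a core exosome subunit, had the highest mean of the 125, at 12.6 and 5.82 TPM. Exosc9 had 3.44 and 7.89 TPM, a higher value in replicate 2, and the exosome helicase Mtrex had 5.21 and 3.86. Exosc5, Exosc4 and Exosc1 had means of 0.62, 0.47 and 0.40 TPM, so subunits of 1 complex stood at different levels.

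Some of the 34 genes overlap a protein-coding gene on the opposite strand, and whether counting used strand is not given in the sources used here. Reads in the shared bases cannot then be assigned with certainty. Gnl3 shares 15 bases with Pbrm1, which had 21278 and 13228 counts against 722 and 411. Bysl shares 361 bases with Ccnd3, a cyclin gene with 7995 and 5460 counts against 667 and 451. Emg1 shares 334 bases with Lpcat3, with 7393 and 2856 counts, and Dkc1 shares 45 bases with Mpp1, with 5714 and 4541. Rrp9 shares 987 bases with Parp3, which had 77 and 40 counts. The longest overlaps with expressed neighbours were those of Rrp9, Wdr12, Bysl and Emg1. Wdr12 shares 399 bases with Carf, which had 295 and 166 counts. Fractional counts, which show reads shared with another gene, occurred in Npm1, Nop56, Fbl and Wdr12. The other 30 genes had whole counts within 0.01 in both libraries, Bysl, Emg1, Rrp9, Gnl3 and Dkc1 among them. Whether reads of a neighbour were counted in the shared bases was not tested.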

How the data were processed

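The series holds 2 libraries of rRNA-depleted total RNA from CFU-E, in 1 group, and no test between groups was possible. Per the file headers, the authors deposited expected counts (estimated reads per gene and per transcript, not scaled) and TPM values (abundances scaled for effective length and depth), with posterior mean TPM beside them. Per the notes deposited with the tables, these rest on mm10 and GENCODE M4. The bounds of the authors' TPM credibility intervals were not used. Aligner, quantifier and use of strand: not given in the sources used here.

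Symbols, classes and positions came from GENCODE M21 by Ensembl identifier, which matched 42462 of 43346 rows. Of the 151 transcripts of the 34 genes, 139 have equal lengths in the tables and in M21. Gene levels are in TPM and the SD covers 2 libraries. Log2 ratios between libraries used expected counts rounded to whole numbers, scaled by TMM in edgeR 4.0.16 (factors from genes with 10 or more counts in both libraries), with a prior count of 0.5 and a mean count of at least 50. DESeq2 1.42.0 size factors were an alternative, with R 4.3.3. Tables used Python 3.11.15, numpy 2.4.6, pandas 2.3.3 and scipy 1.17.1, and figures matplotlib 3.10.9. A count of 0 was set to 3 counts per library for a bound. Scripts were tested on simulated data. The data show depth as total counts of 62576357 and 36889517.

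All 34 genes were named. Of the other pathway genes, the 3 highest and 3 lowest by mean TPM per role were named, and of the snoRNA genes those with 10 or more counts in both libraries. Snora75 and Snord57, and the opposite-strand neighbours, were named after their values were seen. An item of the marker lists is not reported here. The genes and lists were chosen with earlier results of these data known. Alternatives covered TPM minimums of 0.5 and 5, rescaling to nuclear protein-coding genes, posterior mean TPM, other scalings and count filters, and leaving out each library. TPM of protein-coding transcripts alone was added after seeing the data.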

Additional observations from a re-analysis of the deposited data

How the results depend on the processing

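Of the 34 genes 13 reached 1 TPM in both libraries, and this count became 23 at 0.5 TPM, 6 at 5 TPM and 31 when TPM was rescaled to the nuclear protein-coding total. For the other pathway genes the 56 became 2 at 5 TPM and 118 rescaled. Without one or the other library the counts ranged from 14 to 22 for the 34 genes and from 60 to 80 for the others. The rescaled median of the 34 was 11.4 TPM instead of 1.24, and 0.88 to 1.60 with 1 library left out. At or above the median of expressed genes stood 14 or 15 genes instead of 12 with 1 library left out. Against the median of all nuclear protein-coding genes, with no filter on counts, 32 did. By its definition that median divides all nuclear protein-coding genes evenly. The count of genes 2-fold or more higher in replicate 1 went from 0 to 1 with no count filter and to 11 by the ratio of deposited TPM. The count higher in replicate 2 went from 3 to 0 where only mean counts of 500 or more entered, and to 1 by deposited TPM. The median log2 ratio of the 31 genes with mean counts of 50 or more was 0.032, 0.041 with DESeq2 size factors, 0.035 at 500 or more, and 0.73 by deposited TPM, where the median of all genes was 0.66. The lead of Npm1 over Ncl reversed to -0.33 in counts without length correction. Protein-coding transcripts alone left 13 genes at 1 TPM and a median of 1.14, and moved the log2 ratios of Nop56 to Fbl, Dkc1 to Nhp2 and Nop10, Ubtf to Polr1a and Npm1 to Ncl by more than their SD. Posterior mean TPM was within 1.2 times TPM for 31 of 34 genes and exceeded it over 1.5 times for 2, Gar1 and Rrp9. Apart from what the constructions fix, the cause of these moves was not tested. No paired analysis was possible because there is 1 group. Depth limits the genes under 50 counts, Gar1, Nle1 and Rrp12 among them.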
